A study of Mus musculus with 12 samples.

Results

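Thick ascending limb RNA was followed through 9 genes (Umod, Slc12a1, Kcnj1, Bsnd, Cldn10, Cldn16, Cldn19, Ptger3 and Casr), picked by name as genes of this nephron segment and matched to the table by their NCBI gene numbers. All 9 were found among the 27179 genes of the table, and all 9 were among the 14972 genes that were tested. The libraries were whole mouse kidney RNA in 4 groups of 3: wild-type mice given saline, FAN1KO mice given saline, wild-type mice given cisplatin and FAN1KO mice given cisplatin. FAN1KO stands for the genotype γGT1-Cre;Fan1-/-, in which Fan1, a DNA repair nuclease gene, was deleted by a Cre driven from the Ggt1 promoter, which is active in the proximal tubule. The deletion was thus not aimed at the thick ascending limb, and in whole kidney RNA the level of a segment's gene follows both the number of its cells and the RNA in each cell, which cannot be told apart here. Cisplatin, a platinum drug that crosslinks DNA, was given at 2 mg/kg into the peritoneum once a week for 5 weeks, and the saline mice were injected on the same plan. All mice were 8 to 12 weeks old. The labels give the strain background as Mixed in every group, while the study's methods describe a backcross to 129Sv-Elite.

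The thick ascending limb reabsorbs salt without water. The cotransporter NKCC2 (Slc12a1) takes up sodium, potassium and chloride from the lumen, the channel ROMK (Kcnj1) returns potassium to it, and chloride leaves on the blood side with the help of the channel subunit barttin (Bsnd). The resulting lumen-positive voltage drives sodium, calcium and magnesium between the cells through claudins 10, 16 and 19, the calcium-sensing receptor (Casr) and the prostaglandin receptor EP3 (Ptger3) restrain transport, and uromodulin (Umod) is secreted as the most abundant protein of normal urine.

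The promoters of Umod, Cldn10, Cldn16 and Cldn19 are printed because the claudins are the members that changed and Umod is the most abundant of the 9. Each sequence is the 250 bases before a RefSeq transcription start in the GRCm38.p6 assembly, on the strand of the gene and 5′ to 3′, and capitals mark CpG dinucleotides, the sites of DNA methylation.
Umod, chr7:119479263-119479512, minus strand: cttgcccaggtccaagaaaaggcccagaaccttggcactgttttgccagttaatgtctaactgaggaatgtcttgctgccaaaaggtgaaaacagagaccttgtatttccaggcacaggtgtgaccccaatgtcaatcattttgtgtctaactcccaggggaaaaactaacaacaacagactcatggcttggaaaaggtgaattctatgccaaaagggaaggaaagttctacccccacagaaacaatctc
Cldn10, the first start, chr14:118787621-118787870, plus strand: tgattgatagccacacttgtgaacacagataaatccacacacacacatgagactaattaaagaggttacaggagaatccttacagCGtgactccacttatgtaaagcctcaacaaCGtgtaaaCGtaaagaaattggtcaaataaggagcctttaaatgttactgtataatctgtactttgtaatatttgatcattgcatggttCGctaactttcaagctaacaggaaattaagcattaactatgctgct
Cldn10, the second start, chr14:118854700-118854949, plus strand: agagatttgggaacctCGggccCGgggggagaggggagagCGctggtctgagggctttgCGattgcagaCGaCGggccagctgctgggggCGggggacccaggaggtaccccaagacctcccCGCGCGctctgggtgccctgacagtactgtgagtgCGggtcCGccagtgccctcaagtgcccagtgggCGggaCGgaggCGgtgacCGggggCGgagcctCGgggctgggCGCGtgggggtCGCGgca
Cldn16, chr16:26462885-26463134, plus strand: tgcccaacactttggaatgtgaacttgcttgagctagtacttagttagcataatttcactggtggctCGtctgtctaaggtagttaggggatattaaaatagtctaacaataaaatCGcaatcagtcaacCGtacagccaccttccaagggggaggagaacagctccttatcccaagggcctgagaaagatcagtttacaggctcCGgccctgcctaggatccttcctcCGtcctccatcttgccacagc
Cldn19, chr4:119255191-119255440, plus strand: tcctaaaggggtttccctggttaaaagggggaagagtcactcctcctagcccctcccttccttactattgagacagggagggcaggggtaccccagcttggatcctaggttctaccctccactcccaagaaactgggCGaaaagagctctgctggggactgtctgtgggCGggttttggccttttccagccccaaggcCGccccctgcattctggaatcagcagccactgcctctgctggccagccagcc

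The window of Umod held 0 CpG dinucleotides, that of the first Cldn10 start 4, that of the second 22, that of Cldn16 5 and that of Cldn19 3, where the median of all 32851 promoter windows of this length was 6. Letters of a TATA box (TATAAA, in 12.4% of windows), of an estrogen-related receptor core (AAGGTCA, in 4.08%) and of an AP-2 motif (GCCNNNGGC, in 13.7%), searched on both strands, were in none of the 10 member windows, which covered 8 of the 9 genes and not Bsnd. Cldn10 has 2 starts 67079 bases apart, and the window of the first was AT-rich (36.0% G and C) while that of the second was GC-rich (72.4%). The first gives the claudin-10a form known from the proximal tubule and the second the claudin-10b form known from the thick ascending limb, and the table, which holds 1 value per gene, does not separate them.

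Umod lies at chr7:119462708-119479262, Slc12a1 at chr2:125152510-125230002, Kcnj1 at chr9:32372418-32399197, Bsnd at chr4:106483456-106492243 and Cldn10 at chr14:118787871-118874525. Cldn16 lies at chr16:26463135-26482765, Cldn19 at chr4:119255441-119262438, Ptger3 at chr3:157566821-157644758 and Casr at chr16:36490585-36562141. The spans of Slc12a1, Kcnj1, Cldn10 and Cldn19 overlap 1 to 3 predicted genes named with the prefix Gm in the annotation. These spans include introns and were compared without regard to strand. Overlap of exons was not examined, so whether any counted reads are shared was not tested.

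The values are TPM (transcripts per 1000000), which the authors scaled to the length of each gene and to a sum of 1000000 in each library, and tests were run with limma on log2(TPM + 1) across all tested genes with Benjamini-Hochberg adjustment. The whole reads behind the TPM steps could be recovered for 99.5% of the values above 0, and came to between 37200218 and 82944805 reads per library. No member rested on fewer than 315 reads in any library (Cldn16), and Umod had at least 67087. RNA of Uty, Kdm5d, Ddx3y and Eif2s3y, which lie on the Y chromosome, was found in 1 library of each group and was close to 0 in the other 8, although the labels do not give the sex of the mice; the study's methods state that both sexes were used. These 4 libraries are wild-type saline replicate 3, FAN1KO saline replicate 1, wild-type cisplatin replicate 1 and FAN1KO cisplatin replicate 3. Fan1 itself ranged from 1.98 to 3.8 TPM in wild-type saline, 1.17 to 2.28 in FAN1KO saline, 2.33 to 3.57 in wild-type cisplatin and 1.55 to 3.51 in FAN1KO cisplatin, so that the groups overlapped in whole kidney. Marker sums set the context of the FAN1KO cisplatin kidneys: 8 proximal tubule markers summed to between 2448 and 4245 TPM against 5193 to 7168 in wild-type cisplatin, and 5 tubule injury markers summed to between 7650 and 12142 TPM against 415 to 2219. All 3 tested erythroid markers were called lower in this comparison, with sums of 5.54 to 72.4 TPM against 2300.2 to 6531 TPM for the list. Macrophage markers, of which 1 of 4 was called higher, summed to between 94.3 and 259 TPM against 38.7 to 98.9 TPM, and endothelial markers, of which 0 of 4 were called by limma and 0 had an unadjusted p under 0.05, to between 18.2 and 64.1 TPM against 35.0 to 149 TPM. The part of these other cells in the members' results was not tested.

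The 9 members spanned a wide range of abundance. On the TPM scale, which accounts for gene length, the mean in wild-type saline kidneys was 1904 ± 553 (SD, n = 3) for Umod, 255 ± 124 for Slc12a1, 218 ± 67.2 for Cldn10 and 149 ± 61.1 for Kcnj1. Bsnd at 44.0 ± 14.8, Ptger3 at 33.7 ± 15.6, Cldn16 at 16.9 ± 5.25, Cldn19 at 14.9 ± 6.32 and Casr at 11.2 ± 5.01 TPM followed. Slc12a1, Cldn10 and Kcnj1 overlapped in their ranges, as did neighbours from Bsnd to Casr, whereas every Umod value exceeded every value of the other members.

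**Figure D1:**
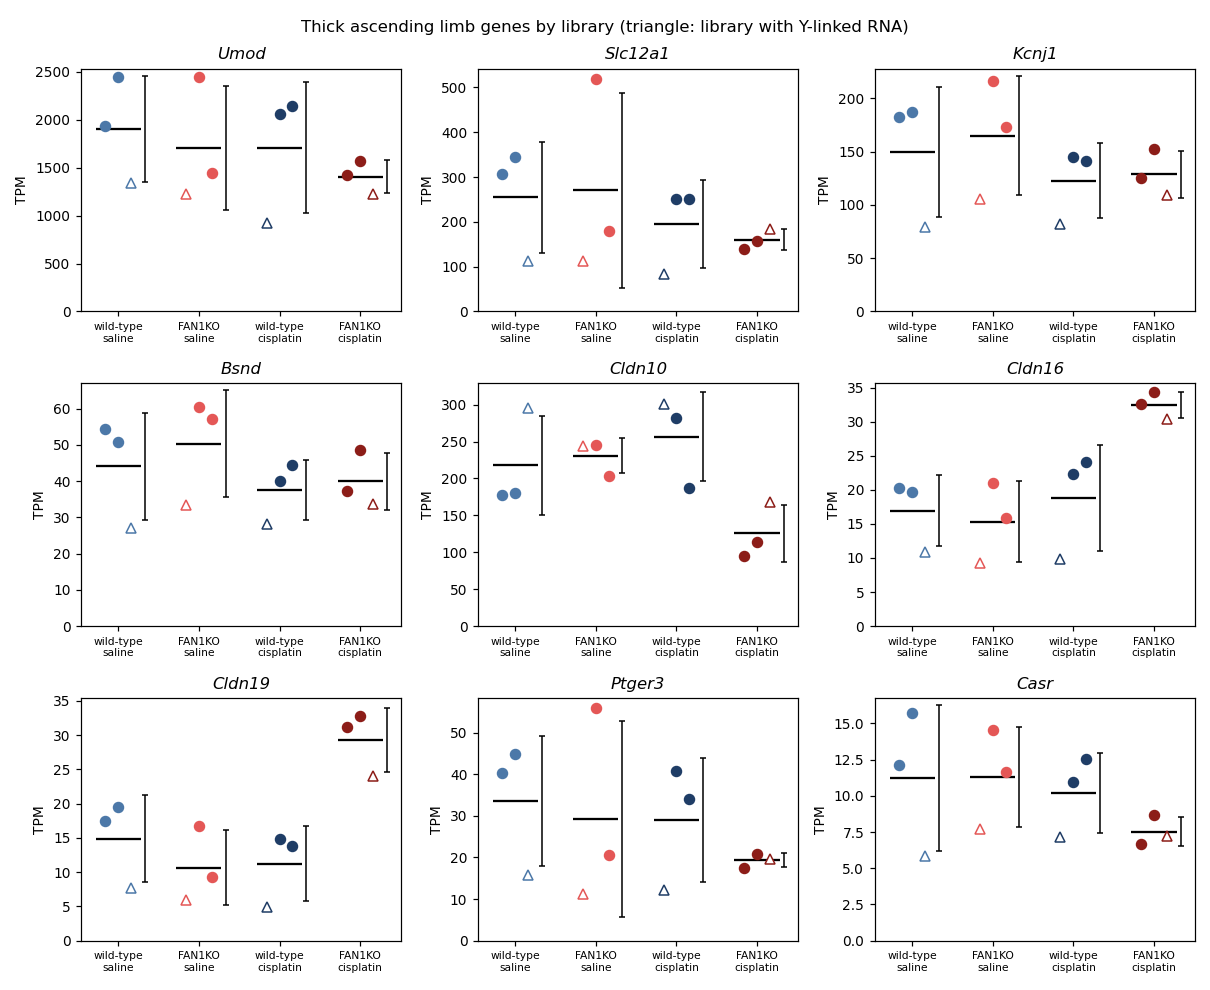
TPM (y axis, linear from 0) of each of the 9 genes in the 12 libraries, by group (x axis). Points are libraries, triangles the libraries with Y-linked RNA, horizontal lines the group means and vertical bars the SD of 3 libraries; the 3 FAN1KO cisplatin points lie above all other points for Cldn16 and Cldn19 and below all other points for Cldn10.

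In cisplatin-treated kidneys the comparison of FAN1KO with wild-type asked how loss of the nuclease changed the segment under repeated DNA damage. Cldn10 was lower and Cldn19 was higher. Cldn16, the salt transport genes, Umod and the 2 receptors did not pass the test. In all, 1 of 9 members was called higher and 1 lower, and 3 had an unadjusted p under 0.05, where 19.6% of all tested genes were called higher and 4.37% lower. The members' median log2 fold change was -0.13 and that of all tested genes 0.24.

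Cldn16 and Cldn19 encode claudins 16 and 19, which together form the cation pore through which magnesium and calcium are reabsorbed. Cldn19 measured 31.2, 32.7 and 24.0 TPM in FAN1KO cisplatin replicates 1 to 3, and 4.98, 14.9 and 13.8 TPM in wild-type cisplatin. All FAN1KO values lay above all wild-type values, as in 35.7% of tested genes. They also lay above 19.6 TPM, the highest value of any saline kidney. The log2 fold change of Cldn19 was 1.42 ± 0.45 (SE; 2.68-fold on the TPM + 1 scale; limma adjusted p = 0.0447). This call was narrow: without 1 library the adjusted p ranged from 0.0319 to 0.157, and it exceeded the threshold on leaving out any of 8 of the 12 libraries, namely wild-type saline replicate 1 or 2, FAN1KO saline replicate 3, wild-type cisplatin replicate 1 or 3, or any FAN1KO cisplatin library, with the highest value without wild-type cisplatin replicate 1.

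Cldn16 measured 32.6, 34.3 and 30.5 TPM in FAN1KO cisplatin and 9.91, 22.4 and 24.1 TPM in wild-type cisplatin. The groups did not overlap, with FAN1KO higher, as in 35.7% of all tested genes (44.3% in either direction). The FAN1KO libraries were close together, while the wild-type group held 1 low library, the one with Y-linked RNA. The log2 fold change of Cldn16 was 0.85 ± 0.36 (limma adjusted p = 0.113), which did not pass the test.

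Cldn10 went the opposite way. It measured 94.7, 114 and 169 TPM in FAN1KO cisplatin and 301, 282 and 187 TPM in wild-type cisplatin. The groups again did not overlap, as in 8.6% of tested genes downwards. The log2 fold change of Cldn10 was -1.04 ± 0.26 (limma adjusted p = 0.0184), so that its level was 0.488 times that of wild-type. The call was lost without wild-type cisplatin replicate 1 (adjusted p = 0.0692) or 2 (0.0523), or without FAN1KO cisplatin replicate 1 (0.0841) or 2 (0.0632).
Because the claudin-10a form belongs to the proximal tubule, the proximal tubule markers are given beside it: 6 of 8 were called lower and none higher in the same comparison (limma, adjusted p under 0.05), all 8 had a negative log2 fold change, and their median was -1.02. Their sum in FAN1KO cisplatin replicates 1 to 3 was 2448, 2661 and 4245 TPM, in the same order as Cldn10 over these 3 libraries. In wild-type cisplatin replicates 1 to 3 the sum was 7168, 5193 and 6075 TPM, in an order that differed from that of Cldn10. With saline the order was the same in wild-type and differed in FAN1KO. The part of proximal tubule RNA in the Cldn10 result was not tested.

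The salt transport genes did not pass the test. Slc12a1 measured 139, 157 and 185 TPM in FAN1KO cisplatin and 83.0, 251 and 252 TPM in wild-type cisplatin, with a log2 fold change of -0.13 (95% interval -1.48 to 1.22, limma adjusted p = 0.896). All FAN1KO values fell between the lowest and the higher pair of wild-type values, and the interval is wide enough to hold a doubling or a loss of more than a factor of 2.
Kcnj1 measured 125, 152 and 109 TPM against 82.1, 145 and 141 TPM, and its log2 fold change of 0.10 (interval -0.71 to 0.91, adjusted p = 0.865) turned to -0.19 under median-ratio scaling. Bsnd measured 37.3, 48.7 and 33.7 TPM against 28.3, 40.1 and 44.3 TPM, and its log2 fold change of 0.09 (interval -0.58 to 0.76, adjusted p = 0.847) turned to -0.19 under the same scaling. That scaling moved the median of all tested genes from 0.24 to -0.01 on the log2 scale and left 9.28% of them called higher and 7.71% lower; Cldn19 and Cldn10 remained the 2 members called.

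Umod measured 1422, 1573 and 1224 TPM in FAN1KO cisplatin and 921, 2061 and 2149 TPM in wild-type cisplatin. The groups overlapped, and its log2 fold change was -0.19 (interval -0.99 to 0.61, adjusted p = 0.727).
Of the receptors, Ptger3 measured 17.5, 20.9 and 19.7 TPM in FAN1KO cisplatin against 12.1, 40.7 and 34.1 TPM, with a log2 fold change of -0.40 (interval -1.70 to 0.90, adjusted p = 0.654). Casr measured 6.71, 8.69 and 7.21 TPM against 7.17, 10.9 and 12.5 TPM, with a log2 fold change of -0.37 (interval -1.10 to 0.36, adjusted p = 0.443). Both receptor genes overlapped between the groups, and in both the lowest wild-type value was that of the library with Y-linked RNA.

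**Figure D2:**
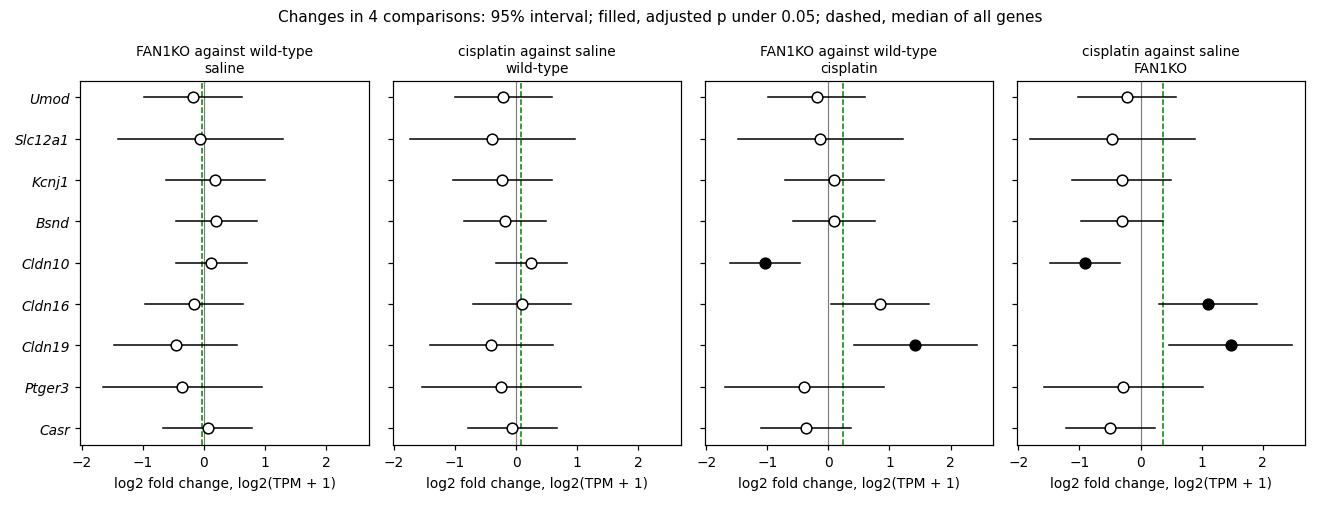
Log2 fold change with its 95% interval (x axis, log2(TPM + 1) scale) of the 9 genes (y axis) in 4 comparisons. Filled points had a limma adjusted p under 0.05 and the dashed line is the median of all tested genes; the filled points are Cldn10 and Cldn19 between genotypes under cisplatin, and Cldn10, Cldn16 and Cldn19 between cisplatin and saline in FAN1KO.

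Within FAN1KO, cisplatin was compared with saline, and Cldn10, Cldn16 and Cldn19 passed the test; the FAN1KO cisplatin libraries are those of the comparison above. Cldn16 rose from 9.20, 21.0 and 15.8 TPM with saline, and Cldn19 from 5.95, 16.7 and 9.31 TPM. The log2 fold change of Cldn16 was 1.10 ± 0.36 (limma adjusted p = 0.0335) and that of Cldn19 1.47 ± 0.45 (adjusted p = 0.0259), in both cases with every cisplatin value above every saline value, as in 47.4% of tested genes. Cldn10 fell from 244, 246 and 204 TPM, by 0.91 ± 0.26 on the log2 scale (limma adjusted p = 0.0194), again without overlap, a pattern that 7.43% of genes showed downwards. The background was 34.9% of tested genes called higher and 4.9% lower.
Without 1 library, the adjusted p ranged from 0.0122 to 0.128 for Cldn16 and from 0.0111 to 0.1001 for Cldn19, and from 0.00813 to 0.0865 for Cldn10. All 3 calls were lost without FAN1KO saline replicate 1 or FAN1KO cisplatin replicate 1 or 2, that of Cldn10 also without FAN1KO saline replicate 2, those of Cldn16 and Cldn19 without FAN1KO saline replicate 3, and that of Cldn16 without FAN1KO cisplatin replicate 3.

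The other 6 members did not pass the test between cisplatin and saline in FAN1KO. Their log2 fold changes were all negative, at -0.22 for Umod, -0.46 for Slc12a1, -0.31 for Kcnj1, -0.30 for Bsnd, -0.28 for Ptger3 and -0.49 for Casr, and their adjusted p lay between 0.255 and 0.726. The members' median was -0.30, against 0.37 for all tested genes. Under median-ratio scaling, where the median of all genes was -0.01, the 2 higher and 1 lower calls became 1 higher (Cldn19) and 3 lower (Cldn10, Bsnd and Casr), and among all tested genes 15.6% were then called higher and 13.7% lower.

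Without cisplatin the genotypes were not told apart. Between FAN1KO and wild-type with saline, 0 of 9 members passed limma's adjusted threshold, also by limma voom on the recovered reads, and 0 had an unadjusted p under 0.05, where 0.768% of all tested genes were called. The log2 fold changes lay between -0.46 (Cldn19) and 0.20 (Bsnd). Slc12a1 illustrates the spread: it measured 307, 344 and 113 TPM in wild-type saline and 112, 519 and 181 TPM in FAN1KO saline.
Umod measured 1934, 2442 and 1337 TPM in wild-type saline and 1230, 2444 and 1444 TPM in FAN1KO saline. Kcnj1 measured 182, 187 and 78.9 TPM against 106, 216 and 173 TPM, and Bsnd 54.4, 50.7 and 27.0 TPM against 33.3, 60.4 and 57.2 TPM. The ranges of these 3 genes overlapped widely, with the lowest value of each group in the library with Y-linked RNA.
The receptors overlapped likewise, with Ptger3 at 40.2, 45.0 and 15.8 TPM in wild-type saline and 11.3, 55.8 and 20.6 TPM in FAN1KO saline, and Casr at 12.1, 15.7 and 5.83 TPM against 7.68, 14.5 and 11.6 TPM. Cldn16 measured 20.3, 19.6 and 10.9 TPM and Cldn19 17.4, 19.6 and 7.71 TPM in wild-type saline, which overlap the FAN1KO saline values given above.
In wild-type mice, cisplatin against saline also gave 0 of 9 members by limma and by voom, 0 with an unadjusted p under 0.05, and log2 fold changes between -0.41 (Cldn19) and 0.25 (Cldn10), where 0.0601% of tested genes were called. In Cldn10 the wild-type values with cisplatin were 301, 282 and 187 TPM and those with saline 177, 181 and 295 TPM, which overlap.

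Whether cisplatin acted differently in the 2 genotypes was tested by the interaction term. None of the 9 members passed limma's threshold, also by voom, 2 had an unadjusted p under 0.05, and 6.24% of all tested genes were called. The term was -1.16 ± 0.37 for Cldn10 (adjusted p = 0.0856), 1.88 ± 0.64 for Cldn19 (adjusted p = 0.103) and 1.00 ± 0.51 for Cldn16 (adjusted p = 0.251). A response of the claudins in FAN1KO that differs from that in wild-type is thus not shown by this fit, although the calls were made in FAN1KO alone. The term of Cldn10 passed without wild-type saline replicate 3 or FAN1KO cisplatin replicate 3 (adjusted p down to 0.0422), both of which are libraries with Y-linked RNA.

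Much of the spread within groups ran along the Y-linked RNA. The wild-type saline library with Y-linked RNA had 113 TPM of Slc12a1 where the other 2 had 307 and 344. The same held in FAN1KO saline (112 against 519 and 181 TPM) and in wild-type cisplatin (83.0 against 251 and 252 TPM), but in FAN1KO cisplatin the library with Y-linked RNA had the highest value (185 against 139 and 157 TPM).
On the log2 scale the differences for Slc12a1 were -1.51, -1.45 and -1.59 in the first 3 groups and 0.32 in FAN1KO cisplatin. For Ptger3 they were -1.37, -1.51, -1.55 and 0.04 in the same order of groups. Against the mean of the other 2 libraries, Umod, Kcnj1, Bsnd, Cldn16, Cldn19 and Casr were lower in the library with Y-linked RNA in all 4 groups, although its Casr value in FAN1KO cisplatin (7.21 TPM) lay above that of replicate 1 (6.71 TPM). Cldn10 differed from that mean upwards in all 4 groups, although its value in FAN1KO saline (244 TPM) lay below that of replicate 2 (246 TPM), and the differences were 0.72, 0.12, 0.39 and 0.69.

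With the Y-linked level as a covariate across all 12 libraries, 8 of 9 members were called lower with it and Cldn10 higher, where 49.5% of all tested genes were called lower and 6.29% higher, so that a fall was common to the whole table. Of the 8 proximal tubule markers, 3 were called higher with it and none lower. All 4 podocyte, all 4 endothelial and all 4 fibroblast markers, 4 of 5 intercalated cell markers and 4 of 5 tubule injury markers were called lower with it, and none of these higher. In that fit Cldn10, Cldn16 and Cldn19 passed the test between genotypes under cisplatin, with log2 fold changes of -1.05, 0.87 and 1.45 (adjusted p = 0.000933, 0.00424 and 0.000652), where 40.3% of genes were called higher and 8.6% lower.
The interaction terms of these 3 genes also passed, at -1.16, 1.01 and 1.89 (limma adjusted p = 0.0073, 0.019 and 0.00271), where 27.3% of genes were called higher and 4.31% lower. That fit holds the Y-linked effect the same in all groups. The log2 difference of the library with Y-linked RNA was smaller in FAN1KO cisplatin, at -0.13 for Cldn16 and -0.40 for Cldn19. In the other groups it was -0.82, -0.92 and -1.15 for Cldn16 and -1.16, -0.96 and -1.36 for Cldn19. Over the 8 libraries without Y-linked RNA, an alternative chosen after seeing the data, Cldn16 (0.51 ± 0.13, limma adjusted p = 0.0244) and Cldn19 (1.10 ± 0.23, adjusted p = 0.0103) were higher in FAN1KO under cisplatin, and Cldn10 (-1.14 ± 0.20, adjusted p = 0.00577) and Casr (-0.56 ± 0.18, adjusted p = 0.0483) lower, where 28.9% of genes were called higher and 7.76% lower. Over the same 8 libraries, Cldn16 and Cldn19 were called higher and Cldn10, Kcnj1, Bsnd and Casr lower between cisplatin and saline in FAN1KO (44.4% and 8.39% of all genes). Of the interaction terms, that of Cldn19 was called higher (1.63) and that of Cldn10 lower (-1.46), where 13.4% and 2.9% of all genes were called. The interaction term of Cldn16 was not called (0.63 ± 0.19, limma adjusted p = 0.0612). The library with Y-linked RNA was the most deeply read of its group in 3 groups. In FAN1KO cisplatin it was the least deeply read by a small margin (39037673 reads against 39108011 and 40190845). The part of sex or depth in these differences was not tested.

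**Figure D3:**
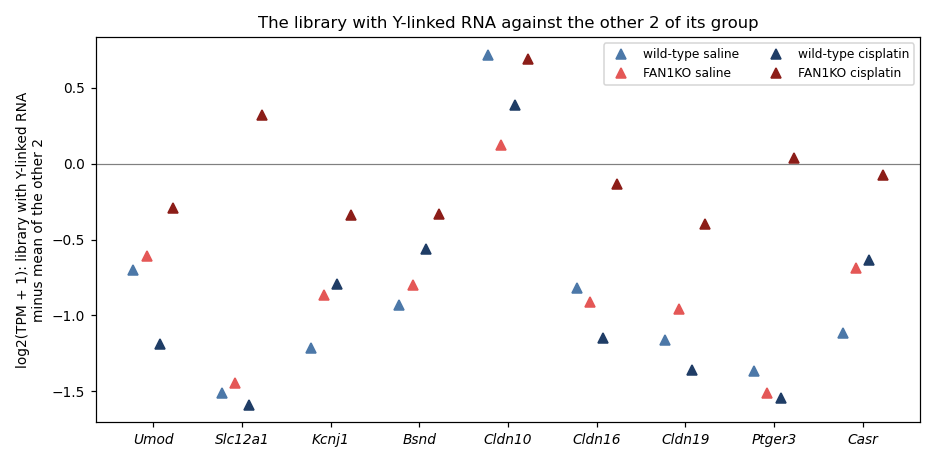
Log2(TPM + 1) in the library with Y-linked RNA minus the mean of the other 2 libraries of its group (y axis) for each gene (x axis), with 1 triangle per group. Cldn10 lies above 0 in all 4 groups; Slc12a1 and Ptger3 lie at -1.37 or below in 3 groups and above 0 in FAN1KO cisplatin.

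Pooled over the groups, the members moved together from library to library, and Cldn10 against them. After subtracting group means, Pearson's r over the 12 libraries lay between 0.806 and 0.991 for the 28 pairs without Cldn10 and between -0.669 and -0.359 for the 8 pairs with it. Across the groups, the pairs of Cldn16 or Cldn19 with one of the other 6 genes had r between 0.199 and 0.504, whereas the 15 pairs among those 6 had r between 0.738 and 0.978. These are descriptions over libraries that share group and Y-linked differences.

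Slc12a1 was used as a yardstick for the segment within each library, a choice made after the values were seen. Within FAN1KO cisplatin it did not move with most members. Its highest value there was in replicate 3 (185 TPM). In that library Umod (1224 TPM), Kcnj1 (109 TPM), Bsnd (33.7 TPM), Cldn16 (30.5 TPM) and Cldn19 (24.0 TPM) had their lowest values of the group, while Ptger3 and Casr did not. Per 100 TPM of Slc12a1, Cldn16 was at 6.61, 5.71 and 9.63 in wild-type saline, 8.22, 4.04 and 8.75 in FAN1KO saline, 11.9, 8.90 and 9.58 in wild-type cisplatin and 23.5, 21.9 and 16.5 in FAN1KO cisplatin. Cldn19 was at 5.66, 5.69 and 6.81, then 5.32, 3.22 and 5.15, then 6.01, 5.93 and 5.47, and in FAN1KO cisplatin at 22.5, 20.9 and 13.0. In both genes every FAN1KO cisplatin library lay above all 9 others, and the wild-type cisplatin library that was low in TPM was no longer low. Relative to Slc12a1, Cldn16 was 2.03-fold and Cldn19 3.15-fold as high in FAN1KO as in wild-type under cisplatin (exact permutation p = 0.1 for each, two-sided, the smallest that 3 against 3 can give).
Ptger3 per 100 TPM of Slc12a1 was lower in FAN1KO with both treatments: 10.1, 10.8 and 11.4 against 13.1, 13.1 and 14.0 with saline, and 12.6, 13.3 and 10.7 against 14.6, 16.2 and 13.5 with cisplatin. The groups did not overlap in either treatment (0.803 and 0.825 times wild-type, exact permutation p = 0.1 for each). Cldn19 per 100 TPM of Slc12a1 was also lower in FAN1KO with saline (0.738 times wild-type, without overlap, exact permutation p = 0.1), the opposite of its direction with cisplatin. The ratios of Umod, Kcnj1, Bsnd and Casr to Slc12a1 overlapped between the genotypes in both treatments. Cldn10 per 100 TPM of Slc12a1 overlapped between the genotypes under cisplatin (68.2, 72.8 and 91.3 in FAN1KO against 363, 112 and 74.3 in wild-type, exact permutation p = 0.2), unlike its TPM. Cldn16 per 100 TPM of Cldn19 was lower in FAN1KO than in wild-type under cisplatin (105, 105 and 127 against 199, 150 and 175) and higher in wild-type with cisplatin than with saline (117, 100.3 and 141), without overlap in either case (exact permutation p = 0.1 for each). Of the 40 comparisons of 10 ratios, 11 had p = 0.1 (exact permutation), and no adjusted p was below 0.364.

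**Figure D4:**
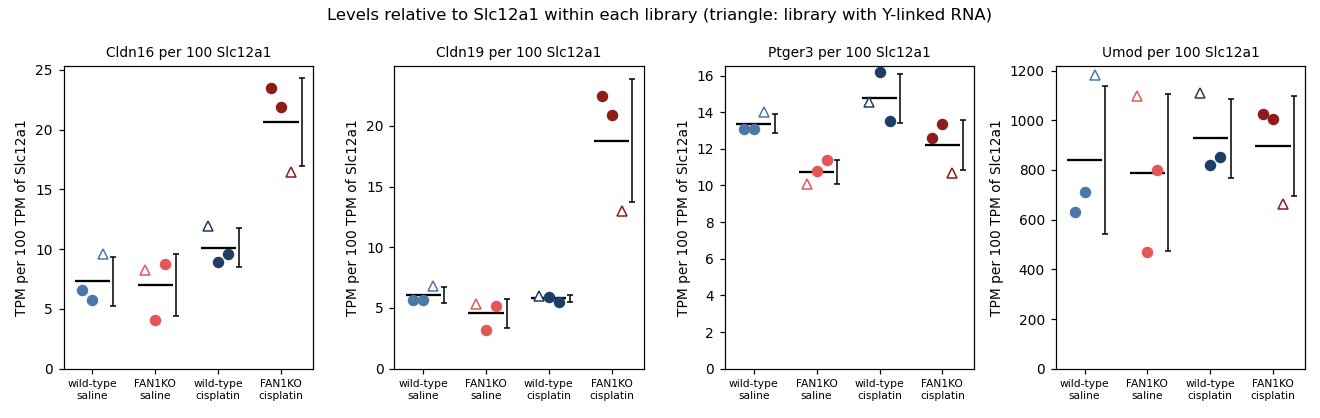
TPM of 4 members per 100 TPM of Slc12a1 in the same library (y axis, linear from 0), by group (x axis), with triangles for the libraries with Y-linked RNA, lines for group means and bars for the SD of 3 libraries. Cldn16 and Cldn19 lie at 16.5 or above and 13.0 or above in FAN1KO cisplatin and below 12 and below 7 elsewhere, while Umod overlaps in all groups.

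Around the 9 members, 35 further genes of the segment were described by role, of which 30 were tested. Of these, Calcr, the calcitonin receptor gene, reached the filter of 1 TPM in 3 libraries only through the FAN1KO cisplatin group and was left out of the counts. Between the genotypes under cisplatin 1 of the other 29 was called higher and 2 lower, where 19.6% of all tested genes were called higher and 4.37% lower. Their median log2 fold change was 0.18, against 0.24 for all tested genes. None of the 5 genes of basolateral transport, of the 8 tested regulators of the cotransporter or of the 6 transcription factors passed the test.

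The calls in the wider list were Cldn3, Egf and Pth1r. Cldn3, a sealing claudin found also in the collecting duct, measured 135, 98.3 and 90.9 TPM in FAN1KO cisplatin and 12.5, 30.5 and 35.0 TPM in wild-type cisplatin. The groups did not overlap, with FAN1KO higher, as in 35.7% of tested genes. The log2 fold change was 2.12 ± 0.39 (limma adjusted p = 0.00477). The principal cell markers, which share the collecting duct, summed to between 1010 and 1605 TPM in FAN1KO cisplatin and between 361 and 730 TPM in wild-type cisplatin. Of these 5 markers 3 were called higher, where 19.6% of all tested genes were, and their part in the Cldn3 result was not tested.
Egf, the epidermal growth factor made in the thick ascending limb and the distal convoluted tubule, measured 66.2, 67.8 and 104 TPM against 211, 300.3 and 443 TPM. Every FAN1KO value lay below every wild-type value, as in 8.6% of tested genes, and the log2 fold change was -1.96 ± 0.36 (limma adjusted p = 0.00454). The 4 distal convoluted tubule markers were split in the same comparison, with 3 negative and 1 positive log2 fold change. Of these markers 2 were called lower and none higher, with sums of 362 to 846 TPM against 688 to 1198 TPM. Slc12a3, the marker that went upwards, had a mean of 436 ± 189 TPM (SD) against 285 ± 81.2 TPM. The part of these markers in the Egf result was not tested. Per 100 TPM of Slc12a1, Egf stood at 47.7, 43.3 and 56.2 in FAN1KO cisplatin and at 254, 120 and 176 in wild-type cisplatin.

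Calcr, given without a test for the reason above, measured 2.65, 2.81 and 1.61 TPM in FAN1KO cisplatin and 0.551, 0.645 and 1.05 TPM in wild-type cisplatin. Pth1r, the parathyroid hormone receptor, which the proximal tubule also expresses, measured 315, 293 and 388 TPM in FAN1KO cisplatin against 548, 466 and 474 TPM (log2 fold change -0.58 ± 0.14, limma adjusted p = 0.0164), and its call was lost without wild-type cisplatin replicate 1 (adjusted p = 0.0612), FAN1KO cisplatin replicate 1 (0.0671) or FAN1KO cisplatin replicate 2 (0.0688).
Between cisplatin and saline in FAN1KO, 2 of the 29 were called higher (Cldn3 by 3.06 and Tfap2b by 1.14 on the log2 scale) and 3 lower (Egf at -2.53, Pth1r at -0.59 and Fxyd2 at -0.45), where 34.9% and 4.9% of all genes were called. The calls of Tfap2b, a transcription factor of distal nephron segments (limma adjusted p = 0.049), and Fxyd2, the gamma subunit of the sodium pump (adjusted p = 0.036), depended on the setting and on single libraries. Tfap2b missed the threshold with a pseudocount of 0.1 (adjusted p = 0.0545), no filter (0.0703), median-ratio scaling (log2 fold change 0.72, 0.106) and no mean-variance trend (0.0533). Fxyd2 missed it with no filter (0.126), with only the 6 libraries compared (0.0633) and over the 8 libraries without Y-linked RNA (0.137). That of Tfap2b was lost without wild-type saline replicate 1, FAN1KO saline replicate 1 or 3, wild-type cisplatin replicate 2 or 3, or FAN1KO cisplatin replicate 1 or 2 (adjusted p up to 0.166), and that of Fxyd2 without FAN1KO saline replicate 1 or 3, wild-type cisplatin replicate 2 or 3, or FAN1KO cisplatin replicate 1 or 3 (adjusted p up to 0.114). With saline, and in wild-type mice given cisplatin, limma called 0 of the 29, and 1 and 0 had an unadjusted p under 0.05.
The interaction passed for Cldn3 (2.82 ± 0.55, limma adjusted p = 0.0206) and Egf (-2.11 ± 0.51, adjusted p = 0.0395). That of Cldn3 was lost on leaving out 3 of the 12 libraries in turn (wild-type saline replicate 1 or 2, or FAN1KO cisplatin replicate 1) and that of Egf on leaving out any library but wild-type saline replicate 3, wild-type cisplatin replicate 1 and FAN1KO cisplatin replicate 3, with adjusted p up to 0.0614 and 0.105. The Egf term also missed the threshold with no filter on low values (adjusted p = 0.0514).

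**Figure D5:**
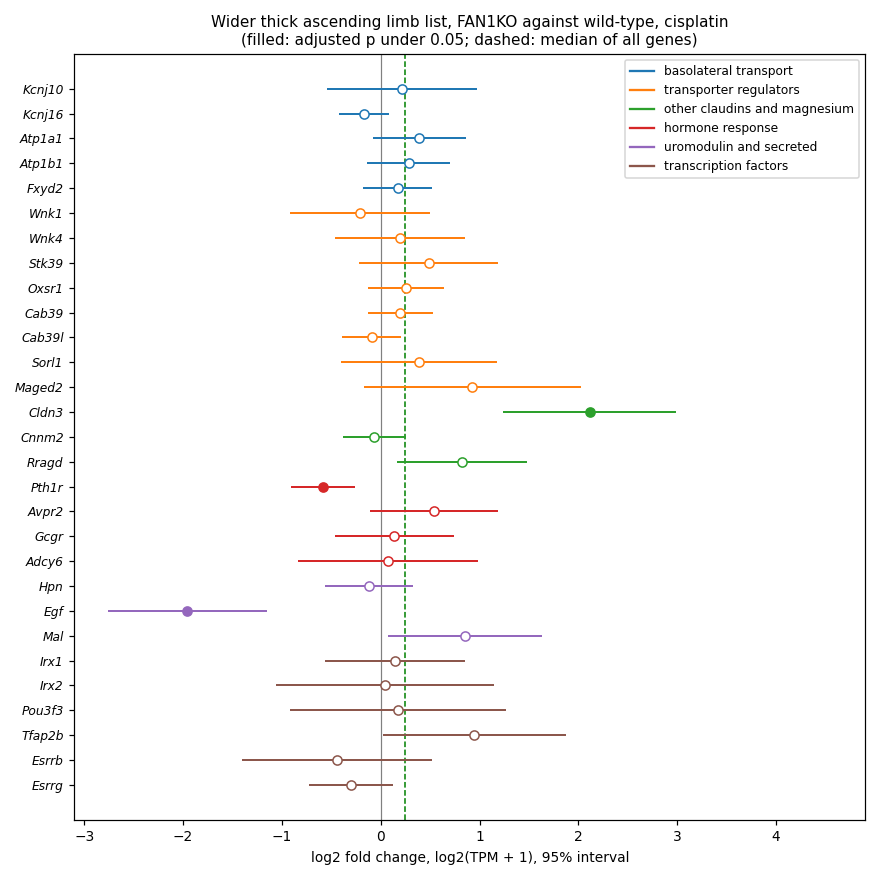
Log2 fold change with its 95% interval (x axis, log2(TPM + 1) scale) of 29 tested genes of the wider list (y axis; Calcr is not shown), coloured by role, between FAN1KO and wild-type under cisplatin. Filled points had a limma adjusted p under 0.05 (Cldn3 to the right of 0, Pth1r and Egf to the left) and the dashed line is the median of all tested genes, 0.24.

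The genes other than the 9 members whose profile over the 12 libraries was most like that of Umod, among 9146 genes with 10 TPM or more in at least 3 libraries, were Esrrb (r = 0.933, a transcription factor gene of the wider list), Slc22a13 (0.933), Ppp1r1b (0.931), Slc5a3 (0.926) and Slc22a13b (0.923). Those most like Slc12a1 were Slc5a3 (0.968), Ppp1r1b (0.937), Tmem207 (0.931), Pde4d (0.923) and Mfsd4a (0.920). Slc5a3, the myo-inositol cotransporter, and Ppp1r1b stood in both sets, and Slc22a13 and Slc22a13b are paralogs whose reads may be shared. Since these libraries share their Y-linked and group differences, the likeness is a description only.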

How the data were processed

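Whole kidney RNA from 12 mice in 4 groups of 3 was prepared with the RNeasy kit and sequenced as paired reads of 150 bases. The authors deposited 1 table of TPM (transcripts per 1000000) for 27179 NCBI gene numbers, each library summing to 1000000. The labels name mm10 and limma, while the aligner and annotation are not given in the sources used here. Gene numbers were named from RefSeq (GRCm38.p6), which left 1904 without a name, and overlaps of gene spans were read from the same source. GENCODE vM21 was used only for gene strands. Genes with 1 TPM or more in at least 3 libraries (14972) were tested on log2(TPM + 1) in limma 3.58.1 (R 4.3.3) with a mean-variance trend and 4 group means, so that all libraries shared 1 estimate of the spread. P-values were adjusted by the Benjamini-Hochberg method with a threshold of 0.05. Fold changes on this scale understate those of low genes.

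The labels list the samples of a group as separate samples, and the p-values measure the spread between them only. Ratios within libraries were tested by exact two-sided permutation, in Python 3.11.15 with scipy 1.17.1. Whole reads were recovered from the TPM steps, taking a value within 0.05 of a whole number as whole. A limma voom fit on those reads, added after seeing the data, called 3699 genes between genotypes under cisplatin against 3585 by the main test. The fit and the recovery were tested on simulated data.

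The 9 genes, the wider list and the markers were chosen with earlier results of these data known. All 9 were reported throughout. A few genes first put on the wider list are not reported here. Of the wider list, the text names those past the threshold in any of the 4 group comparisons, and it names the 5 genes most like Umod and the 5 most like Slc12a1 by Pearson's r. The 5 listed genes below the filter, and the ratios, were picked after their values were seen. Other pseudocounts, filters, scalings, sample sets and covariates, and each library left out in turn, were tried as alternatives.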

Additional observations from a re-analysis of the deposited data

How the results depend on the processing

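Between genotypes under cisplatin, where 2 members passed the test, 1 did (Cldn10) with a pseudocount of 0.1, with no filter on low values and with only the 6 libraries compared, where Cldn19 had adjusted p of 0.0518, 0.063 and 0.0519. Over the 8 libraries without Y-linked RNA, chosen after seeing the data, 4 did, and without 1 library 0 to 2. Of all genes, 3585 were called in the main fit and 5490 over those 8 libraries. The fits without 1 library that called 0 members called 1539 to 1938 genes. With a pseudocount of 0.1, no filter (more genes tested) and only the 6 libraries, 3213, 3792 and 2175 genes were called. Between cisplatin and saline in FAN1KO the 3 calls became 6 over those 8 libraries (Kcnj1, Bsnd and Casr joining as lower) and 0 to 3 without 1 library. Of all genes, 5962 were called there in the main fit and 7903 over those 8 libraries. The fits without 1 library that called 0 members called 3622 to 4206 genes. The interaction called 0 members, 3 with the Y-linked covariate, 2 over the 8 libraries and 0 to 1 without 1 library. Of all genes, the main fit called 935, the covariate fit 4734 and the 8 libraries 2438. The fits without wild-type saline replicate 3 or FAN1KO cisplatin replicate 3, which called 1 member each, called 739 and 1197 genes. In the saline and wild-type cisplatin comparisons 0 were called under every alternative run, where the main test called 0.768% and 0.0601% of all genes. Only effects that did not pass the test turned direction. Between genotypes under cisplatin, median-ratio scaling gave -0.19 for Kcnj1, -0.19 for Bsnd and -0.12 for Fxyd2, and the 8 libraries gave -0.0515 for Kcnj1. Without 1 library, log2 fold changes between genotypes under cisplatin ranged from -0.59 to 0.0227 for Umod, -0.66 to 0.14 for Slc12a1, -0.16 to 0.24 for Kcnj1 and -0.0944 to 0.22 for Bsnd. With saline they ranged from -0.0052 to 0.36 for Cldn10 and -0.43 to 0.15 for Cldn16. Between cisplatin and saline in FAN1KO they ranged from -0.42 to 0.0704 for Umod, -0.94 to 0.16 for Slc12a1 and -0.79 to 0.32 for Ptger3, and in wild-type from -0.17 to 0.48 for Cldn16 and -0.80 to 0.0437 for Cldn19. The causes were not tested. Deviations from group means correlated at 0.018 on average between libraries of the same replicate number and 0.015 between others. Single correlations ran from -0.61 to 0.76 and from -0.70 to 0.78, and the libraries with Y-linked RNA did not all carry the same number. These averages therefore cannot decide whether the numbers pair the samples. With a replicate block, the counts of members called were 2, 0, 3, 0 and 0 in the 5 comparisons, as without it. The Egf interaction was lost with it (adjusted p = 0.0698), and 2956 against 3585 genes were called between genotypes under cisplatin. Every member had at least 315 reads in each library, and depth limits mainly the 5 listed genes below the filter, which were not tested. All intervals rest on 3 libraries per group.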

Other observations

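The macula densa, the plaque of cells at the end of the thick ascending limb that senses luminal salt, was represented by 3 genes below the filter on low values, which were therefore not tested. Nos1, its nitric oxide synthase, was covered by 3, 4 and 0 recovered reads in FAN1KO cisplatin replicates 1 to 3 (0.0327, 0.0406 and 0 TPM). It had 20, 38 and 15 reads in wild-type cisplatin, 11, 17 and 17 in FAN1KO saline and 47, 44 and 31 in wild-type saline, so that the FAN1KO cisplatin counts were below all others. Under cisplatin, 8.6% of tested genes had each FAN1KO value below each wild-type value. Pappa2, a secreted protease of the macula densa, measured 0.790, 0.587 and 0.207 TPM in wild-type saline and 0.140, 0.176 and 0.130 TPM in FAN1KO saline. The saline groups did not overlap, as in 7.83% of tested genes downwards and 12.5% in either direction. With cisplatin Pappa2 measured 0.241, 0.575 and 0.524 TPM in wild-type and 0.212, 0.337 and 0.142 TPM in FAN1KO, which overlap. Cldn14, the claudin that blocks the claudin 16 and 19 pore, was also below the filter, at 3.28, 0.861 and 0.551 TPM in FAN1KO cisplatin and 0.346, 0.829 and 1.61 TPM in wild-type cisplatin, with the highest value in 1 library. Ptgs2, also a listed macula densa gene, measured 0.369, 0.118 and 0.228 TPM in FAN1KO cisplatin and 0.107, 0.186 and 0.0692 TPM in wild-type cisplatin. These groups overlapped, and the FAN1KO mean was the higher (0.238 against 0.121 TPM). Ptgs2 and Wnk3 did not exceed 0.369 TPM in any library.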
